A study of Mus musculus with 23 samples.

Results

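The 9 genes described here control the release of fatty acids from stored fat. They are the lipases Pnpla2, Lipe and Mgll, the Pnpla2 co-activator Abhd5 and inhibitor G0s2, the β-adrenergic receptors Adrb1 and Adrb3, the glycerol channel Aqp7 and the cAMP-degrading phosphodiesterase Pde3b. They were chosen by name as a functional group, from 47311 genes with at least 1 listed transcript, and all 9 were measured. The series sequenced RNA of tumor-adjacent mammary fat from 23 female mice of the strain C57BL/6J, 1 library for each. Every mouse carried a tumor grown from 250000 E0771-luciferase cells, a mouse mammary carcinoma line, placed in mammary gland 4. There were 8 obese mice given anti-PD-1, 5 obese mice given the IgG2a isotype control, 5 lean mice given anti-PD-1 and 5 lean mice given IgG2a. The antibodies were injected every 3 days from day 3 after the tumor cells, anti-PD-1 at 200 µg, and tissue was taken on day 21. Obese mice ate food with 60% of its energy as fat from 8 to 26 weeks of age. Lean mice are labelled as fed 10% of energy from fat, although their treatment text, like that of the obese mice, names only the richer diet. Anti-PD-1 blocks an inhibitory receptor on T cells, and no tumor-free mice are among the samples.

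Fat cells store triglyceride in a droplet and release it stepwise. Pnpla2 (adipose triglyceride lipase) removes the first fatty acid, Lipe (hormone-sensitive lipase) the next and Mgll (monoglyceride lipase) the last, and the glycerol left over leaves through Aqp7. Noradrenaline starts the process by binding β-adrenergic receptors, chiefly Adrb3 in mouse fat cells, which raises cAMP. Insulin opposes it through Pde3b, which breaks cAMP down. Abhd5 is held at the droplet surface until stimulation frees it to activate Pnpla2, and G0s2 binds Pnpla2 and blocks it.

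A pair of measures is used. Estimated counts summed per gene and scaled to library size (CPM, with TMM scaling) compare 1 gene between libraries, and TPM, which also allow for transcript length, compare genes with each other. The libraries held 49438121 to 77369057 estimated counts. Fat cells were present in every library: none of 15 fat-cell markers was at 0 throughout, and their summed level was 5448 to 71429 CPM in obese anti-PD-1, 9995 to 40514 in obese IgG2a, 21670.5 to 45142 in lean anti-PD-1 and 20931 to 60520 CPM in lean IgG2a libraries. B cell genes split the libraries into 11 with a high score (a score is the mean log2 CPM of a list, here at least 5.16) and 12 with a low one (at most -0.57). The high set held obese anti-PD-1 libraries 3 and 4, obese IgG2a libraries 1 and 3, lean anti-PD-1 libraries 1, 3 and 5 and lean IgG2a libraries 1 to 4. Lymph node stroma genes split the same way, with scores of 4.34 to 7.55 in the high set and -3.71 to -1.81 in the low set. Skeletal muscle scores were 4.69 to 7.76 in obese IgG2a library 3, lean anti-PD-1 libraries 1 and 2 and lean IgG2a libraries 1 and 2, and at most 1.27 in the others. Liver genes were high in obese IgG2a library 5 (11 markers summed to 10061 CPM, against at most 232 CPM in any lean library).

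The promoters of Pnpla2 and Lipe are shown because the ratio of these 2 lipases did not overlap between the diets. The 300 bases around each start site (250 before it and the first 50 transcribed bases, in capitals) are given 5′ to 3′ from RefSeq on GRCm38.p6, for Pnpla2 at chr7:141454938-141455237 on the plus strand and for Lipe at chr7:25390063-25390362 on the minus strand.
Pnpla2: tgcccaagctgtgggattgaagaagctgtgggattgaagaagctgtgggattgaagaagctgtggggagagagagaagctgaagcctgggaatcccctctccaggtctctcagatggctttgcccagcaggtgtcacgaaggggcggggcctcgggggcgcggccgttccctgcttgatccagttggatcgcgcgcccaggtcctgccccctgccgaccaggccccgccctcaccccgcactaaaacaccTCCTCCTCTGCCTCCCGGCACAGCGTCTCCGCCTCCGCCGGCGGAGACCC
Lipe: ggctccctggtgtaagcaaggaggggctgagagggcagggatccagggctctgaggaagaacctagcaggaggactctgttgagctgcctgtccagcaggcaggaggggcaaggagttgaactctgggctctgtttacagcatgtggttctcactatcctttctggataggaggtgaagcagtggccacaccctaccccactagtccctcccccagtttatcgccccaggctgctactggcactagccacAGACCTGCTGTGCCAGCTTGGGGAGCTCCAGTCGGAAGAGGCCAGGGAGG
The Pnpla2 window was 65.3% G or C and held 2 GC boxes (GGGCGG, searched on both strands), at -109 and -26 from the start. The Lipe window was 60.0% G or C and held none. A GC box occurred in 35.7% of 32851 RefSeq promoter windows of this length. Neither window held a cAMP response element (TGACGTCA, in 1.79% of windows), an E-box (CACGTG, 7.15%), a nuclear receptor half-site (AGGTCA, 16.3%), a CCAAT box (CCAAT, 37.4%) or a TATA box (TATAAA, 13.6%). The 6 motifs do not contain one another, and the GC and TATA boxes were added after the sequences were seen.

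By TPM, Pnpla2 was the most abundant, with a median of 1448 TPM over the 23 libraries and more than Lipe (median 678 TPM) in 23 of 23. Lipe exceeded Mgll (306 TPM) in 22 of 23. Mgll exceeded G0s2 (242 TPM) in 11 of 23 libraries, so their order was not fixed, and G0s2 exceeded Adrb3 (112 TPM) in 22 of 23. Aqp7 (73.4 TPM), Abhd5 (68.9 TPM) and Pde3b (44.0 TPM) followed with overlapping ranges. Adrb3 exceeded Aqp7 in 13 of 23 libraries, so its place was not fixed either. In obese anti-PD-1 libraries its median (62.9 TPM) was below those of Aqp7 (187 TPM), Abhd5 (104 TPM) and Pde3b (79.7 TPM). Adrb1 was the least abundant in every library, at 1.31 to 8.83 TPM, so Adrb3 was the main β-adrenergic receptor of the pair in all 4 groups.

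**Figure D1:**
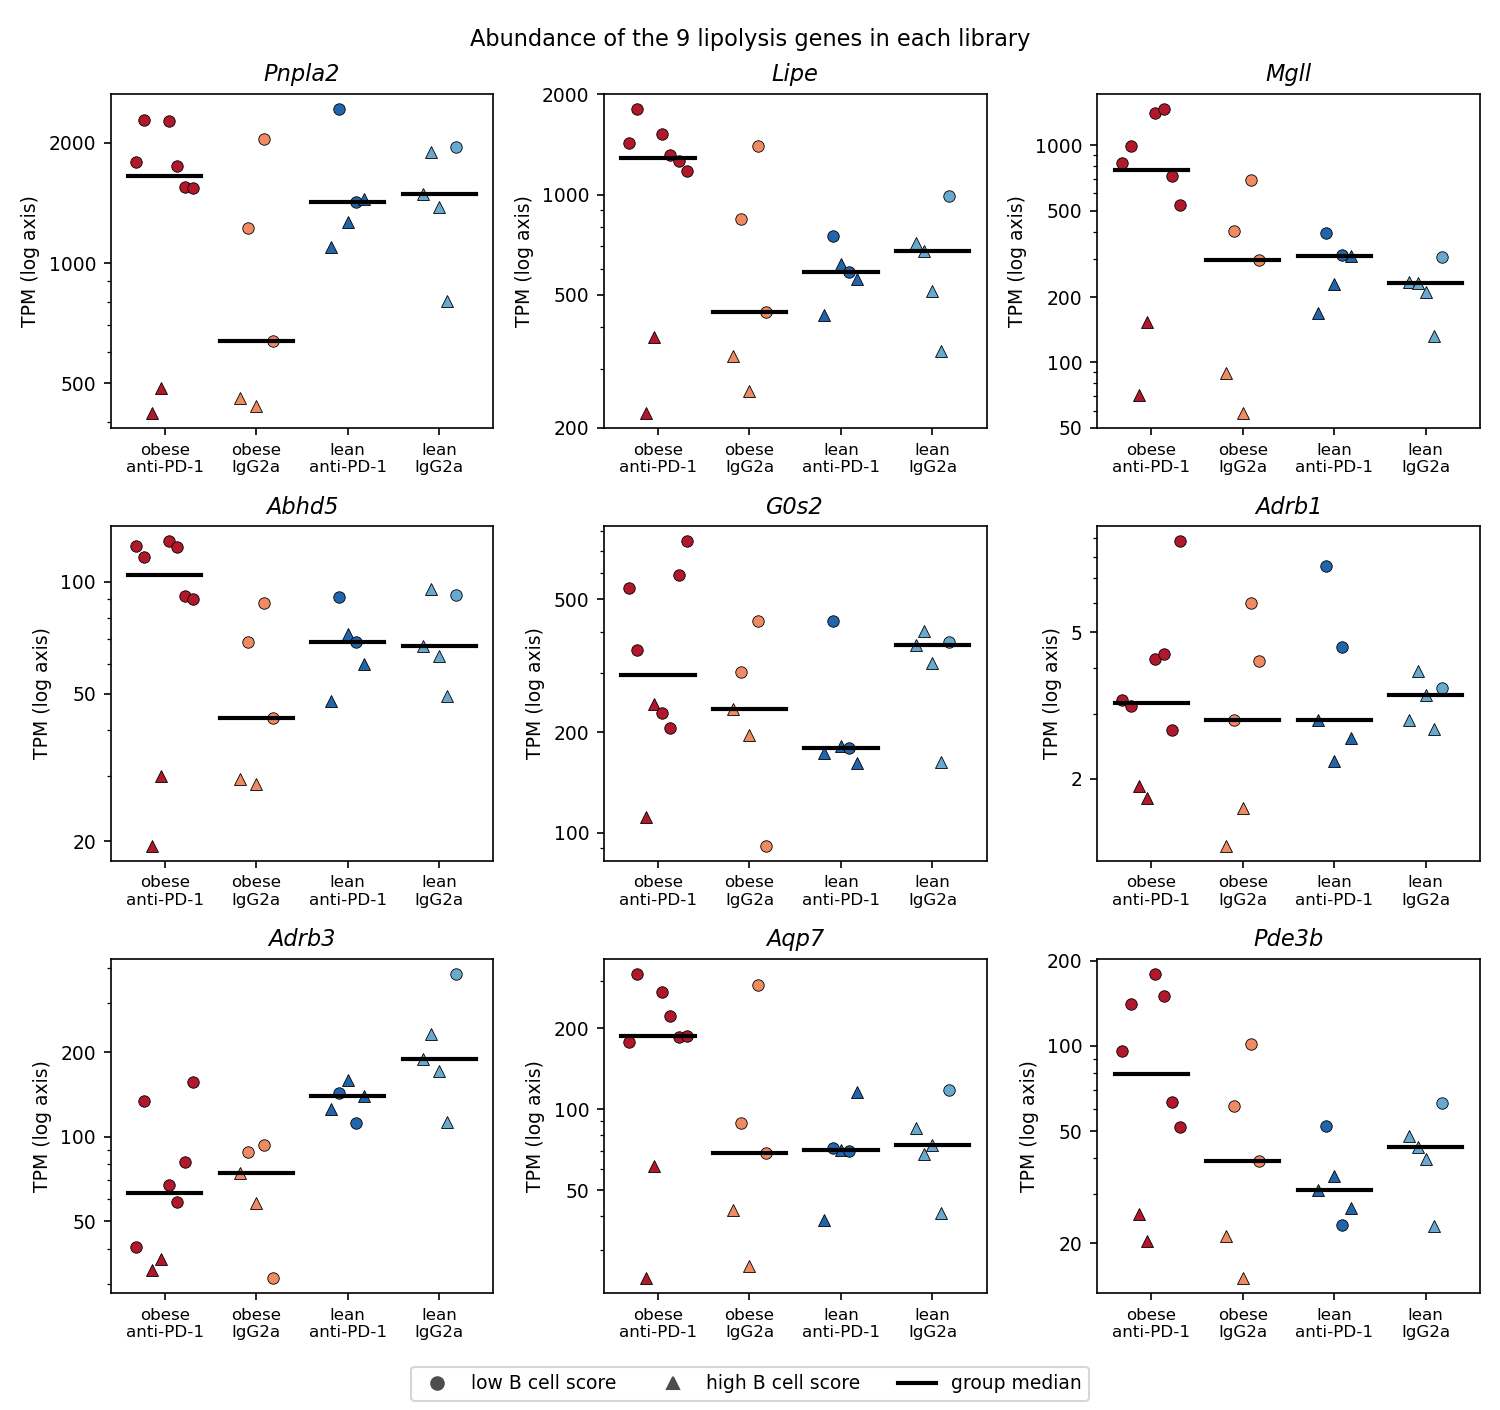
TPM (log axis) of each of the 9 genes in each library, by group, with the group median as a bar; triangles mark a high B cell score, circles a low one. Adrb3 was lower in most obese libraries than in lean ones, and for Pnpla2 and Abhd5 the 4 obese triangles lie below every lean library (Pnpla2 at most 485 TPM).

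Among the 9 genes, Adrb3 was the only one called between diets in the fit without a covariate, and it was called under both antibodies. Under IgG2a 1 of the 9 was lower in obese mice and 0 were higher, and under anti-PD-1 the count was again 1 lower and 0 higher. Over all 19882 genes tested, 5.79% were called in the IgG2a comparison (3.12% lower and 2.68% higher) and 10.1% in the anti-PD-1 comparison (4.85% lower and 5.2% higher). A gene was called (rose or fell) where the adjusted p was below 0.05 in edgeR's quasi-likelihood test with Benjamini-Hochberg adjustment over all genes tested. The median log2 fold change of the 9 was -0.53 under IgG2a, against 0.12 for all genes, and 0.28 under anti-PD-1, against 0.08. Both comparisons share no libraries with each other.

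Adrb3 (ENSMUSG00000031489, GRCm38 chromosome 8, 27225776 to 27250616, minus strand) encodes the β3-adrenergic receptor. It was measured at 159, 129, 127, 115 and 41.6 CPM in obese IgG2a libraries 1 to 5, against 446, 487, 300.0, 217 and 775 CPM in lean IgG2a libraries 1 to 5. Every obese library lay below every lean one. The means were 114 ± 43.8 CPM in obese and 445 ± 214 CPM in lean mice (SD, n = 5 each), and the fitted log2 fold change was -1.96 (SE 0.417, adjusted p = 0.00701, edgeR's quasi-likelihood test), a level 3.89-fold lower. Under anti-PD-1 the 8 obese libraries had 48.1 CPM at the lowest, a median of 71.4 and 226 CPM at the highest, against 239, 256, 298, 264 and 282 CPM in lean libraries 1 to 5. Again no obese library reached a lean one, with 226 CPM in obese library 8 close to 239 CPM in lean library 1. The fall was 2.56-fold (log2 fold change -1.35, SE 0.356, adjusted p = 0.0184). Groups that did not overlap, with the obese one lower, occurred for 4.42% of all genes under IgG2a and 3.11% under anti-PD-1. On the TPM scale obese anti-PD-1 libraries 2 (134 TPM) and 8 (156 TPM) overlapped the lean ones (112 to 159.6 TPM), while under IgG2a all 5 obese libraries stayed below. An annotated antisense gene that overlaps Adrb3, Gm45470, was not among the listed transcripts. Without strand information, any reads of it could be counted as Adrb3 where the 2 overlap.

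Genes of several marker lists also differed with diet. Of 11 genes of heat-producing fat cells, 10 fell with obesity under IgG2a and 9 under anti-PD-1, with median log2 fold changes of -4.25 and -3.65. Their summed level was 23.1 to 209 CPM in obese anti-PD-1, 31.3 to 86.5 in obese IgG2a, 537 to 1062 in lean anti-PD-1 and 351 to 2169 CPM in lean IgG2a libraries, and none was at 0 throughout. Mammary epithelial genes were lower as well: 4 of 12 fell under IgG2a and 10 of 12 under anti-PD-1, and their summed level was 320 to 1804 CPM in obese anti-PD-1, 584 to 992 in obese IgG2a, 1289 to 4576 in lean anti-PD-1 and 1280 to 2408 CPM in lean IgG2a libraries. Neutrophil markers summed to 2.63 to 59.0 CPM in obese anti-PD-1, 22.3 to 138 in obese IgG2a, 1.46 to 14.1 in lean anti-PD-1 and 4.51 to 10.1 CPM in lean IgG2a libraries, without overlap under IgG2a. Of the 7 listed, 1 rose under each antibody, and Ly6g did not pass the count filter and was not tested. Markers of dividing cells summed to 21.8 to 212 CPM in obese anti-PD-1, 64.4 to 598 in obese IgG2a, 13.4 to 226 in lean anti-PD-1 and 32.3 to 177 CPM in lean IgG2a libraries, and 2 of 6 rose under IgG2a. Their part in the Adrb3 difference was not tested. With the epithelial score as a covariate the Adrb3 differences were -1.46 (adjusted p = 0.133) under IgG2a and -0.86 (adjusted p = 0.266) under anti-PD-1 in edgeR's test, and neither was called. The part of epithelium in the Adrb3 difference was not tested beyond this. With the fat-cell score as a covariate both calls stood, at -1.43 (adjusted p = 0.0206) and -1.37 (adjusted p = 0.00291). The Adrb3 call was lost under anti-PD-1 among low B cell score libraries alone (-1.19, adjusted p = 0.132), and under IgG2a without obese libraries 2 and 5 together (-1.73, adjusted p = 0.0771).

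Adrb1 (ENSMUSG00000035283, chromosome 19, 56722199 to 56733113, plus strand) encodes the β1-adrenergic receptor and passed no threshold. It was measured at 3.24 to 15.3 CPM in obese anti-PD-1 and 3.45 to 9.62 in obese IgG2a libraries, against 4.99 to 17.3 in lean anti-PD-1 and 6.45 to 10.3 CPM in lean IgG2a libraries, so the groups overlapped. Its log2 fold changes were -0.50 (SE 0.402, adjusted p = 0.572) under IgG2a and -0.61 (SE 0.357, adjusted p = 0.319) under anti-PD-1 in edgeR's test. With the B cell score as a covariate it was called lower under anti-PD-1 (-0.80, SE 0.267, adjusted p = 0.0481) and not under IgG2a (-0.79, adjusted p = 0.0829). The Adrb3 to Adrb1 ratio of TPM had medians of 17.6 in obese anti-PD-1, 30.6 in obese IgG2a, 43.8 in lean anti-PD-1 and 59.3 in lean IgG2a libraries. The 13 obese libraries ran between 7.53 and 56.7 and the 10 lean ones between 18.9 and 108, so the ranges overlapped.

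None of the 3 lipases passed the threshold in either diet comparison. Pnpla2 (ENSMUSG00000025509, chromosome 7, 141455198 to 141460743, plus strand) had 905, 1538, 856, 2315 and 739 CPM in obese IgG2a libraries 1 to 5, against 3234, 3767, 2305, 1439 and 3739.8 CPM in lean IgG2a libraries. Obese libraries 1, 3 and 5 lay below every lean one, and obese libraries 2 and 4 overlapped them. The log2 fold change was -1.19 (SE 0.413, adjusted p = 0.0933 in edgeR's test), a level 2.28-fold lower that did not pass. DESeq2 called it (-1.17, adjusted p = 0.0255), as did voom with library quality weights (-1.16, adjusted p = 0.00415) and edgeR without obese IgG2a library 4 (-1.48, adjusted p = 0.0339). Under anti-PD-1 the obese libraries had a lowest value of 537, a median of 2029 and a highest of 2467 CPM, against 2002, 4078, 2151, 3283 and 2703 CPM in lean libraries 1 to 5. Obese libraries 3 and 4, at 537 and 807 CPM, were far below the others, and 4 of 8 were below every lean library. The difference was -0.67 (SE 0.363, adjusted p = 0.270), and with the epithelial score as a covariate its sign turned (0.09, SE 0.497, adjusted p = 0.924). The epithelial score itself differed with diet, so this fit cannot separate the 2.

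In a whole-tissue library, fewer fat cells and less RNA per fat cell cannot be told apart. The 4 obese libraries with a high B cell score had fat-cell scores of 7.28 to 8.74, below the 7 lean ones of that set, all at 8.92 to 10.2. The same 4 libraries had 537 to 905 CPM of Pnpla2, against 1439 to 3767 in those 7 lean libraries. The 9 obese libraries with a low B cell score had Pnpla2 at 739 to 2467 CPM, against 3283 to 4078 CPM in the 3 lean ones, so within each set every obese library was below every lean library. That was so for 9.15% of all genes in the high set and 6.58% in the low set. Obese IgG2a library 5, the one with the liver genes, had the lowest of those 9 values and a fat-cell score of 8.33.

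Pnpla2 was called lower in obese mice when the B cell score entered the fit, by -1.44 (SE 0.280, adjusted p = 0.00148) under IgG2a and -1.08 (SE 0.255, adjusted p = 0.00675) under anti-PD-1 in edgeR's test. In those fits 14.9% and 13.8% of all genes were called. With the fat-cell score in its place the values were -0.47 (adjusted p = 0.0659), not called, and -0.72 (SE 0.137, adjusted p = 0.000753), called, with 12.2% and 20.5% of all genes called. Of the 15 fat-cell markers that form this score, 5 fell under IgG2a, and 5 fell and 2 rose under anti-PD-1, so part of the score's own list differed with diet.

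Lipe (ENSMUSG00000003123, chromosome 7, 25379527 to 25398710, minus strand) had 910, 1521, 698, 2250 and 704 CPM in obese IgG2a libraries 1 to 5, against 2123, 1841, 1165, 812 and 2574 CPM in lean IgG2a libraries. The groups overlapped, and the log2 fold change was -0.49 (SE 0.445, adjusted p = 0.646, edgeR's test). Under anti-PD-1 the obese libraries had a lowest value of 376, a median of 2241 and a highest of 2810 CPM, against 1033, 1724, 1443, 1687 and 1408 CPM in lean libraries. Obese libraries 3 and 4 were below every lean library and the other 6 were above every one, so the difference of 0.40 (SE 0.405, adjusted p = 0.619) joins values on both sides. An antisense gene, 4732471J01Rik, overlaps Lipe; it had a median of 107 counts per library, and without strand information its reads cannot be told apart from those of Lipe where they overlap.

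Mgll (ENSMUSG00000033174, chromosome 6, 88724412 to 88828360, plus strand) had the widest spread of the lipases. It was measured at 356, 1019, 224, 1595 and 668 CPM in obese IgG2a libraries 1 to 5, against 1007, 898, 695, 474 and 1139 CPM in lean IgG2a libraries, and the log2 fold change was -0.13 (SE 0.567, adjusted p = 0.957, edgeR's test). In obese anti-PD-1 libraries the lowest value was 184, the median 2047 and the highest 3192 CPM, against 594, 1332, 756, 1377 and 1134 CPM in lean libraries. Of the 8 obese libraries, 5 were above every lean one and libraries 3 and 4 were below every one. The difference was 0.81 (SE 0.525, adjusted p = 0.377), and voom called it (1.01, adjusted p = 0.0261). The antisense gene Gm26588 overlaps the start of Mgll and had a median of 167 counts per library. With the fat-cell score as a covariate Mgll was called higher in obese IgG2a mice (0.84, SE 0.267, adjusted p = 0.0427) and was at 0.59 (SE 0.228, adjusted p = 0.0677) in obese anti-PD-1 mice.

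**Figure D2:**
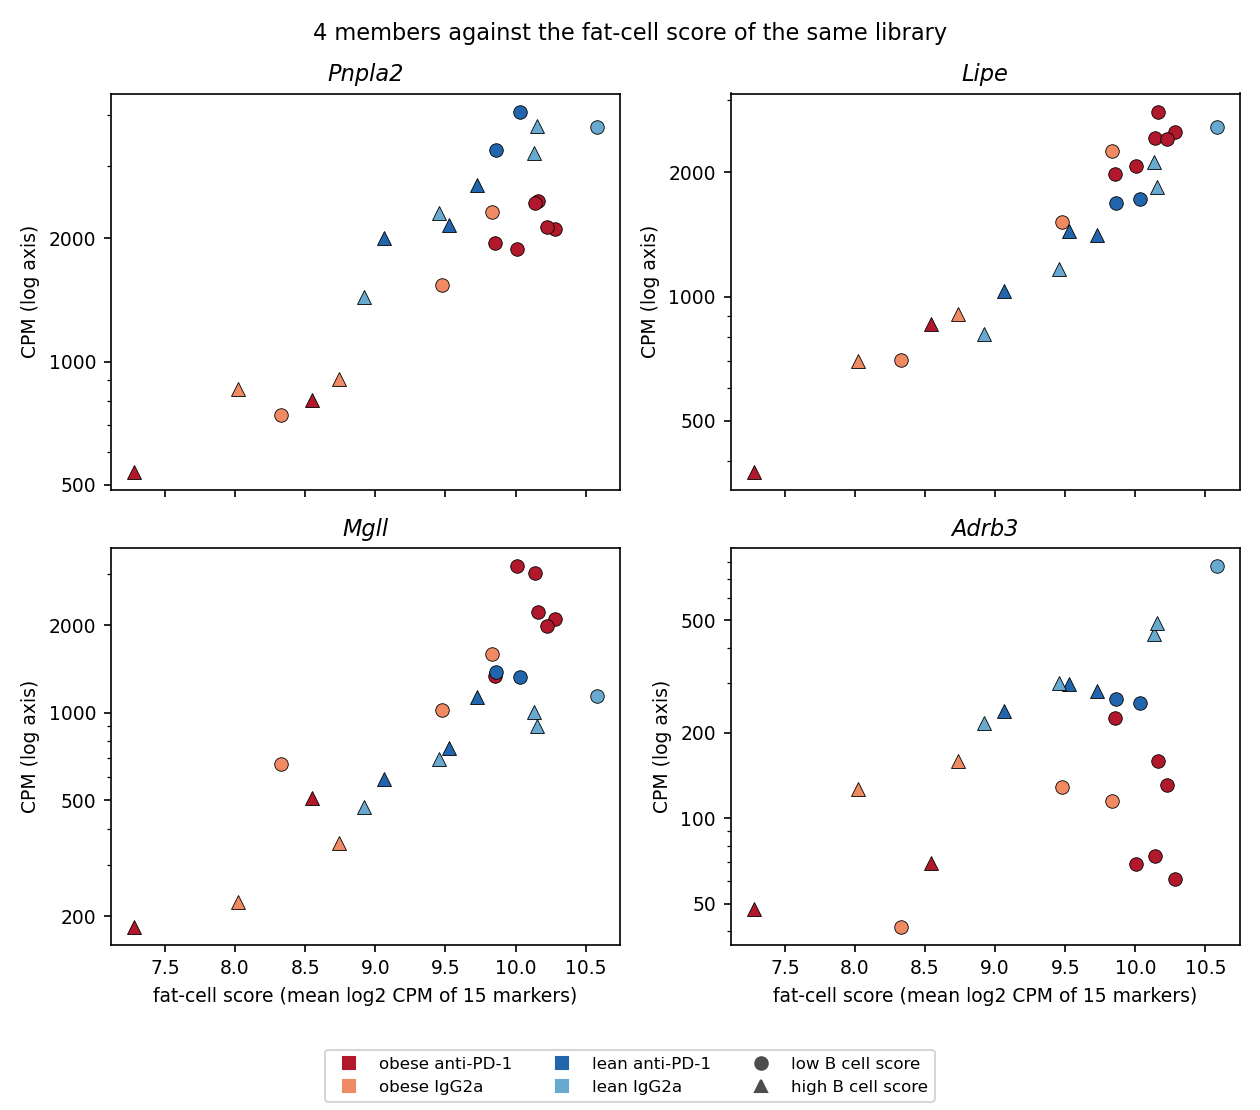
CPM (log axis) of 4 genes against the fat-cell score (mean log2 CPM of 15 markers) of the same library; colors give the group, triangles a high and circles a low B cell score. The 4 obese triangles lie at scores of 7.28 to 8.74, and obese libraries lie below lean ones of similar score for Pnpla2 and Adrb3. Each library is 1 mouse and the members and markers share its depth and scaling.

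The ratio of Lipe to Pnpla2 told the diets apart without overlap. It was 0.525 at the lowest, 0.765 at the median and 0.812 at the highest in obese anti-PD-1 libraries, and 0.714, 0.689, 0.587, 0.685 and 0.696 in obese IgG2a libraries 1 to 5. It was 0.397, 0.309, 0.489, 0.412 and 0.386 in lean anti-PD-1 libraries 1 to 5, and 0.479, 0.357, 0.372, 0.423 and 0.508 in lean IgG2a libraries. All 13 obese libraries (median 0.714) were therefore above all 10 lean ones (median 0.404). The separation also held within the high B cell score set, with 0.525 to 0.768 in 4 obese and 0.357 to 0.489 in 7 lean libraries, and within the low set, with 0.673 to 0.812 in 9 obese and 0.309 to 0.508 in 3 lean libraries, but the ratio to Pnpla2 did so for 52.3% of the other genes in the high set and 29.1% in the low set. A ratio of CPM per length of the most abundant transcript separated them as well, at 0.539 or more in obese and 0.530 or less in lean libraries. Among 19881 other tested genes, the ratio to Pnpla2 was higher in all obese than in all lean libraries for 822, or 4.13%, and lower without overlap for 0.191%. No test is given for a ratio, and it shows unequal change of the 2 genes and not which of them moved.

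The other ratios to Pnpla2 overlapped between diets. Mgll to Pnpla2 was 0.133 to 0.842 in the 13 obese libraries and 0.122 to 0.219 in the 10 lean ones. Among libraries with a low B cell score it was 0.327 to 0.842 in 9 obese and 0.157 to 0.219 in 3 lean libraries, one of the 29.1% of ratios without overlap there, and among those with a high score 0.133 to 0.316 in 4 obese and 0.122 to 0.214 in 7 lean libraries. G0s2 to Pnpla2, the inhibitor against its enzyme, was 0.101 to 0.512 in obese and 0.111 to 0.245 in lean libraries. Abhd5 to Pnpla2, the co-activator against the enzyme, was 0.0429 to 0.0708 in obese and 0.0373 to 0.0611 in lean libraries.

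**Figure D3:**
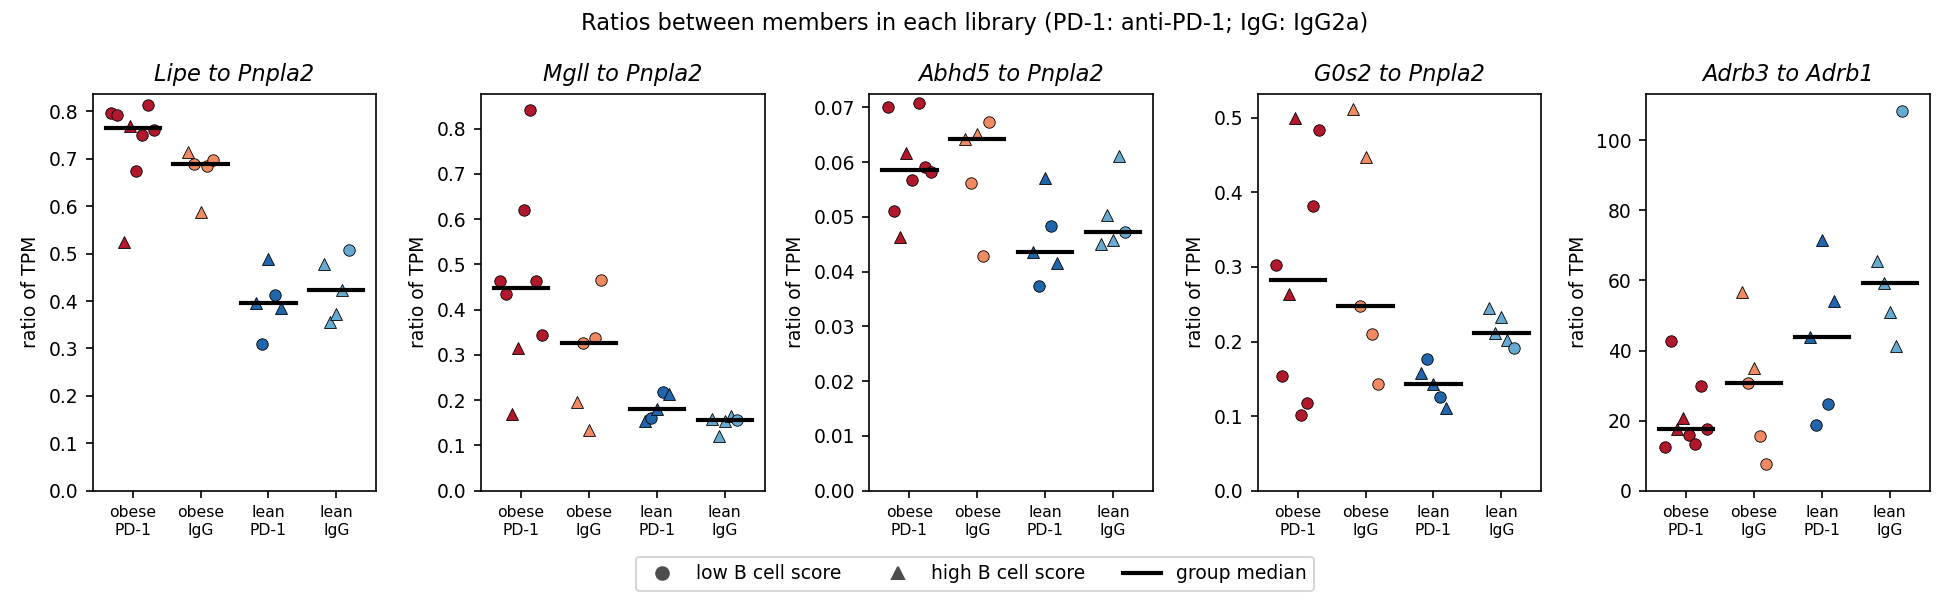
Ratio of TPM between members in each library, by group, with the group median as a bar; triangles mark a high B cell score. Lipe to Pnpla2 was at least 0.525 in the obese and at most 0.508 in the lean libraries, while the other 4 ratios overlapped.

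Transcript estimates add detail on Pnpla2, though they are less certain than the gene sums. Pnpla2-201, annotated as a target of nonsense-mediated decay, held a median of 49.0% of the gene's TPM in obese and 56.7% in lean libraries, and the protein-coding Pnpla2-202 held 36.1% in obese and 36.5% in lean libraries. Pnpla2-206, a shorter protein-coding model of 985 bases, held 4.06% to 19.1% in the 9 obese libraries with a low B cell score and at most 0.0489% in the 4 obese libraries with a high one. In the 10 lean libraries it held 5.78% in anti-PD-1 library 2 and at most 0.716% in the other 9. The 4 obese libraries with a high B cell score were thus like most lean libraries in this share, for which no test is given. Stretches in which Pnpla2-201 or Pnpla2-206 differs from Pnpla2-202 are shown because the Pnpla2 shares rest in part on such differences. They are given 5′ to 3′ on GRCm38, plus strand, from the GENCODE M21 transcripts. The first is the start of the exon of Pnpla2-201 at chr7:141456568-141456593 that Pnpla2-202 skips, up to the stop codon (in capitals). The next, chr7:141458005-141458106, holds 102 bases of a coding exon that Pnpla2-206 lacks. The last, chr7:141458592-141458759, is a coding exon of 168 bases of Pnpla2-206 that Pnpla2-202 lacks. Pnpla2-201 also holds this exon, so it does not tell Pnpla2-206 from Pnpla2-201.
Pnpla2-201: gtgatcttgagcagctagaacaaTGA
Pnpla2-202: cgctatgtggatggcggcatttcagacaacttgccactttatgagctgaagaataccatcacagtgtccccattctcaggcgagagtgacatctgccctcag
Pnpla2-206: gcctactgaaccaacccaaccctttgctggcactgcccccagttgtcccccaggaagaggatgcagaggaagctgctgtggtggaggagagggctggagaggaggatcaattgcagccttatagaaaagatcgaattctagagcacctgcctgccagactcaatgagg
The other lipases each had 1 leading transcript. Lipe-202 held a median of 83.9% of Lipe in obese and 88.1% in lean libraries, and Mgll-204 held 84.7% of Mgll in obese and 91.8% in lean libraries.

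Abhd5 (ENSMUSG00000032540, chromosome 9, 122351608 to 122381524, plus strand) passed no threshold. It was measured at 69.4, 102, 60.0, 119.5 and 62.3 CPM in obese IgG2a libraries 1 to 5, against 169, 205, 121, 90.5 and 187 CPM in lean IgG2a libraries. Obese libraries 1, 3 and 5 were below every lean one. The log2 fold change was -0.90 (SE 0.368, unadjusted p = 0.0227, adjusted p = 0.161 in edgeR's test). It was called by voom (-0.84, adjusted p = 0.0170) and with the B cell score as a covariate (-1.12, SE 0.252, adjusted p = 0.00463). Under anti-PD-1 it ran from 31.7 to 192 CPM in obese and from 88.9 to 182 CPM in lean libraries, with a difference of -0.0025 (SE 0.329, adjusted p = 0.999).

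G0s2 (ENSMUSG00000009633, chromosome 1, 193272161 to 193273217, minus strand) passed no threshold. It ran from 41.0 to 192 CPM in obese IgG2a and from 107 to 293 CPM in lean IgG2a libraries (log2 fold change -0.73, SE 0.461, adjusted p = 0.433, edgeR's test). Under anti-PD-1 it ran from 52.4 to 358 CPM in obese and from 111 to 273 CPM in lean libraries (0.28, SE 0.416, adjusted p = 0.773). The groups overlapped in both. G0s2 lies inside Lamb3 on the opposite strand, which had a median of 795 counts per library, so reads of the 2 genes could be exchanged where their exons overlap.

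Aqp7 (ENSMUSG00000028427, chromosome 4, 41033074 to 41048139, minus strand) and Pde3b (ENSMUSG00000030671, chromosome 7, 114415281 to 114539251, plus strand) had their lowest obese anti-PD-1 values in libraries 3 and 4. So did Pnpla2, Lipe, Mgll, Abhd5 and Adrb1. Aqp7 had 58.2 to 311 CPM in obese IgG2a and 87.2 to 231 in lean IgG2a libraries, and 36.4 to 331 in obese anti-PD-1 and 85.0 to 203 CPM in lean anti-PD-1 libraries. Its log2 fold changes were -0.23 (SE 0.475, adjusted p = 0.891) and 0.57 (SE 0.436, adjusted p = 0.481) in edgeR's test. Pde3b had 108 to 339 CPM in obese IgG2a and 148 to 395 in lean IgG2a libraries, and 104 to 538 in obese anti-PD-1 and 164 to 318 CPM in lean anti-PD-1 libraries. Its log2 fold changes were -0.53 (SE 0.411, adjusted p = 0.553) and 0.61 (SE 0.377, adjusted p = 0.350). With the fat-cell score as a covariate Aqp7 was called higher in obese mice under both antibodies (0.59, adjusted p = 0.0427, and 0.46, adjusted p = 0.0468), and Pde3b under anti-PD-1 (0.54, adjusted p = 0.0275). Without a covariate voom called both higher under anti-PD-1, Aqp7 by 0.81 (adjusted p = 0.0426) and Pde3b by 0.78 (adjusted p = 0.0285).

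**Figure D4:**
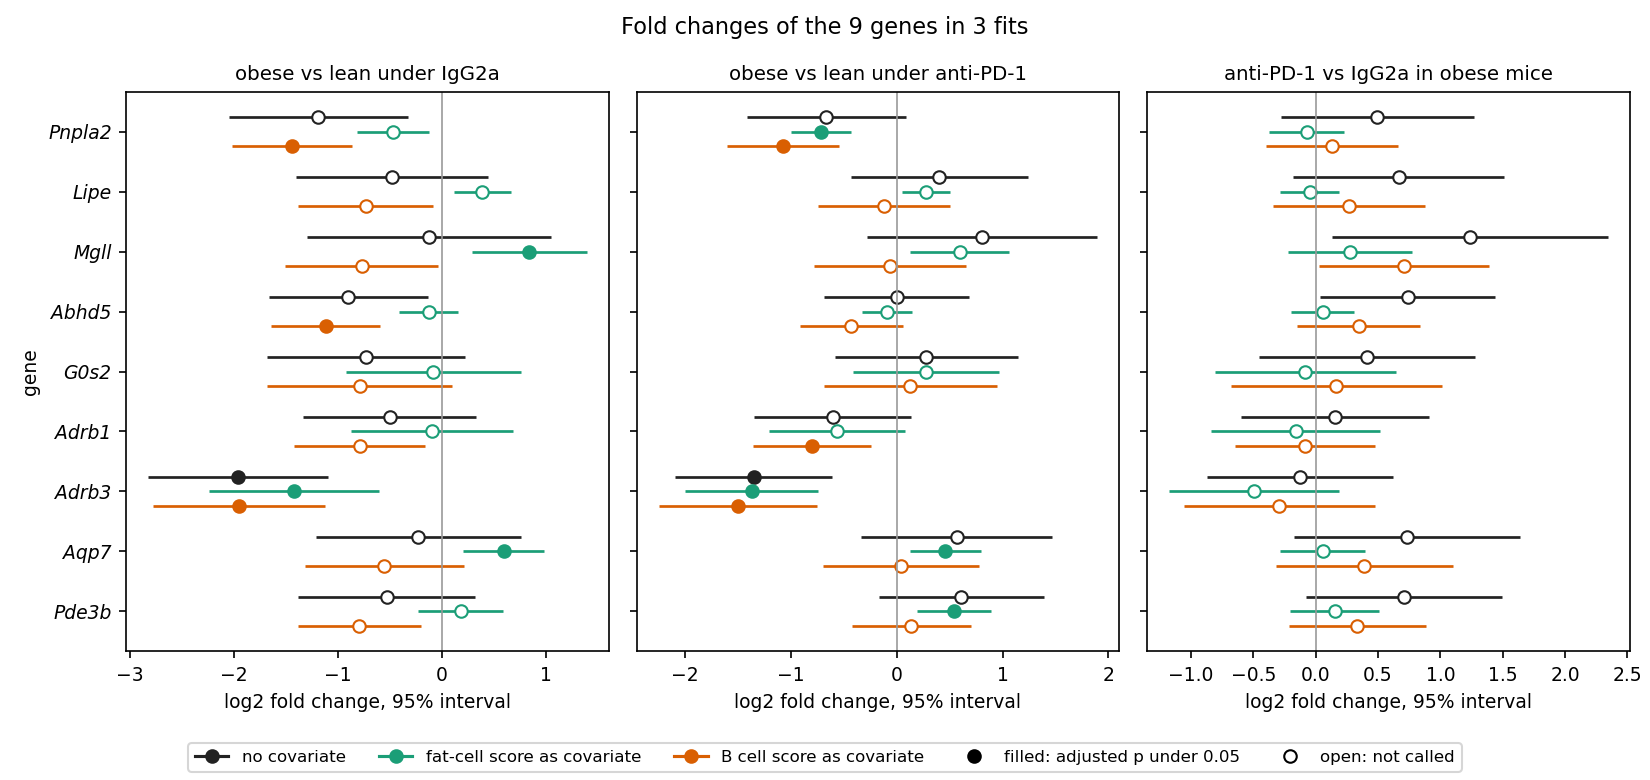
Log2 fold change of each gene with its 95% interval in 3 comparisons, in the fit without a covariate, with the fat-cell score and with the B cell score; filled points passed an adjusted p of 0.05. Adrb3 was called in all 3 fits of both diet comparisons, Pnpla2 with the B cell score in both, and none of the 9 genes in the antibody comparison of obese mice. Other filled points are given in the text. The fit with the epithelial score, in which Adrb3 was called in neither diet comparison, is not drawn.

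The next comparison asked what anti-PD-1 changed in obese mice. None of the 9 genes was called, against 0.538% of all genes (107 of 19882), and 2 of the 9 had an unadjusted p under 0.05, as 2700 of all genes did. The count over all genes rested on single libraries: it was 0 without any 1 of 7 libraries and 643 without obese IgG2a library 4. DESeq2 called none of the 9 and voom with library quality weights called Mgll alone (1.11, adjusted p = 0.0429). Mgll had the largest difference, 1.24 (SE 0.534, adjusted p = 0.311, edgeR's test), from a mean of 1819 ± 1082 CPM in obese anti-PD-1 (n = 8) and 772 ± 553 CPM in obese IgG2a mice (SD, n = 5). Abhd5 was at 0.74 (SE 0.337, adjusted p = 0.340), Aqp7 at 0.73 (SE 0.438), Pde3b at 0.71 (SE 0.379), Lipe at 0.67 (SE 0.409) and Pnpla2 at 0.49 (SE 0.373). Adrb3 was at -0.13 (SE 0.362, adjusted p = 0.924), with 48.1 to 226 CPM in obese anti-PD-1 and 41.6 to 159 CPM in obese IgG2a libraries. The groups overlapped for all 9 genes, and 0.111% of all genes had groups that did not. The fat-cell score had a median of 10.1 in obese anti-PD-1 and 8.74 in obese IgG2a libraries, and with it as a covariate the 9 differences lay between -0.49 (Adrb3) and 0.28 (Mgll), with none called among the 9 or among all genes. Liver markers also differed, with 8 of 11 lower in obese anti-PD-1 mice and 10061 CPM in a single IgG2a library; their part in these differences was not tested.

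In lean mice none of the 9 genes was called by edgeR's quasi-likelihood test, where 0% of all genes was called, 472 genes and 0 of the 9 had an unadjusted p under 0.05, and DESeq2 called 22 genes and voom 1. The log2 fold changes ran from -0.73 for Adrb3 (SE 0.404, unadjusted p = 0.0833) to 0.30 for Mgll (SE 0.567). Adrb3 averaged 267.7 ± 23.02 CPM in lean anti-PD-1 and 445 ± 214 CPM in lean IgG2a mice (SD, n = 5 each), and the lean IgG2a values ran from 217 to 775 CPM. The groups overlapped for all 9, as they did for all but 0.553% of genes.

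The interaction, which asks whether the antibody effect differed between obese and lean mice, was called for none of the 9 and for 0% of all genes. At an unadjusted p under 0.05 there were 1449 genes and 0 of the 9, while DESeq2 called 50 genes and voom 629, none of them among the 9. The estimate was above 0 for 8 of the 9, with a median of 0.89 against 0.02 for all genes. Pde3b had the largest, 1.14 (SE 0.558, unadjusted p = 0.0525, adjusted p = 0.691, edgeR's test), and Adrb1 was at -0.10 (SE 0.540). With the fat-cell score as a covariate 5 of the 9 were below 0, and Pde3b was at 0.36 (SE 0.256).

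Around the 9 genes, the signaling pathway showed a few large differences by diet. Of 8 stimulatory receptor and cAMP production genes, 0 were called in obese IgG2a mice, while Adcy5 (1.94, SE 0.515, adjusted p = 0.0194) and Adcy6 (1.13, SE 0.327, adjusted p = 0.0308), both adenylyl cyclases that make cAMP, rose in obese anti-PD-1 mice in edgeR's test. Adcy5 averaged 319 ± 175 CPM in obese anti-PD-1 (SD, n = 8) and 83.1 ± 47.5 CPM in lean anti-PD-1 mice (n = 5). Under IgG2a the smallest p of that list was also that of Adcy5 (1.22, SE 0.536, adjusted p = 0.199). None of 7 protein kinase A genes (subunits and the anchoring protein Akap1) was called in either comparison. The smallest p was that of the catalytic subunit Prkaca under IgG2a (-1.03, SE 0.313, adjusted p = 0.0527) and of the regulatory subunit Prkar2b under anti-PD-1 (1.22, SE 0.467, adjusted p = 0.102).

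On the antilipolytic side, Npr3, the receptor that clears natriuretic peptides, rose under both antibodies. It averaged 2064 ± 1227 CPM in obese anti-PD-1 and 70.3 ± 42.9 CPM in lean anti-PD-1 mice (4.88, SE 0.830, adjusted p = 0.000675), and 871 ± 819.6 CPM in obese IgG2a and 98.7 ± 75.5 CPM in lean IgG2a mice (3.14, SE 0.785, adjusted p = 0.0204, edgeR's test). Ptger3, a prostaglandin E2 receptor that lowers cAMP, fell in obese IgG2a mice (-2.42, SE 0.687, adjusted p = 0.0386). Of the 13 genes in that list, 1 rose and 1 fell under IgG2a and 1 rose under anti-PD-1. Among 7 other phosphodiesterases, 0 were called under IgG2a and Pde7a alone rose under anti-PD-1 (1.63, SE 0.303, adjusted p = 0.00149), while under IgG2a it was at 0.82 (SE 0.317, adjusted p = 0.133).

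Of 10 other lipases and lipolysis regulators, 3 fell with obesity under IgG2a and 2 under anti-PD-1, and the list medians were -0.997 and -0.60. Pnpla3, a lipase relative of Pnpla2 whose expression follows feeding, fell by 3.11 under IgG2a (SE 0.586, adjusted p = 0.00287, edgeR's test). Ddhd2, an intracellular lipase, fell by 1.64 (SE 0.218, adjusted p = 7.13e-05) under IgG2a and by 1.04 (SE 0.188, adjusted p = 0.00116) under anti-PD-1. The monoglyceride lipase Abhd6 fell by 1.12 under IgG2a (SE 0.304, adjusted p = 0.0313), and Plin5, a droplet protein that binds Pnpla2 and Abhd5, fell by 1.12 under anti-PD-1 (SE 0.339, adjusted p = 0.0385). Of 6 genes for handling glycerol and fatty acids after release, 0 were called in either comparison. The fatty acid transporter Slc27a1 had the smallest p under IgG2a (-1.32, SE 0.483, adjusted p = 0.114) and Acsl1, which activates fatty acids, under anti-PD-1 (0.66, SE 0.524, adjusted p = 0.500). In the antibody comparisons and the interaction none of the genes in these 6 lists was called.

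**Figure D5:**
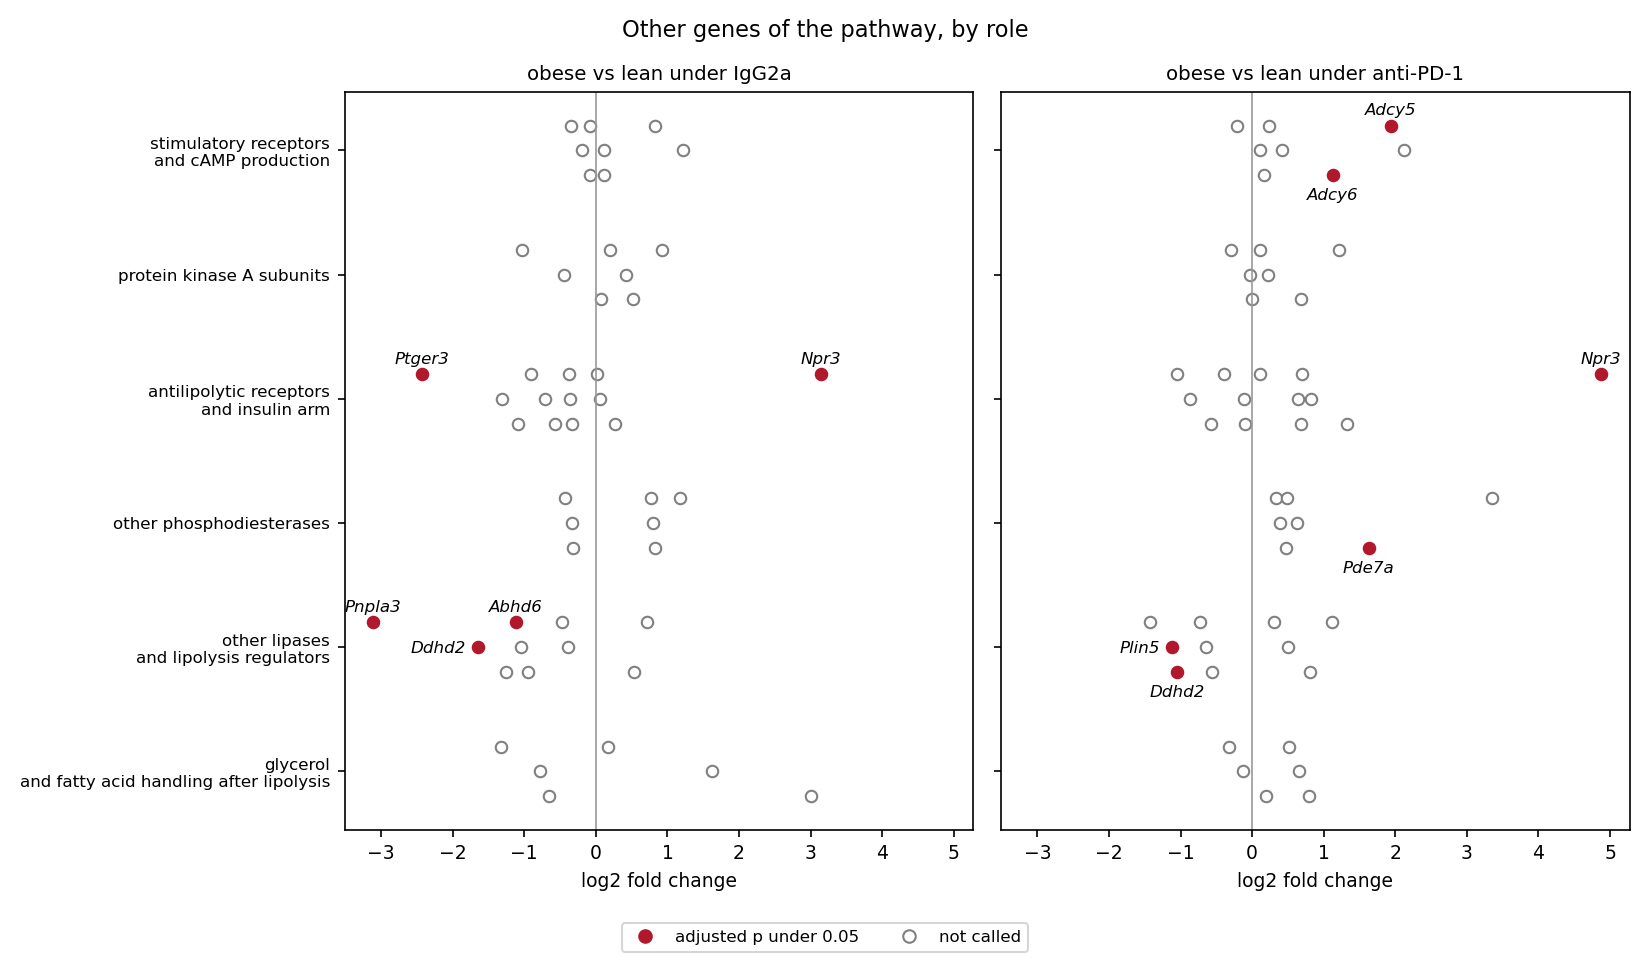
Log2 fold change of the other pathway genes in obese against lean mice under IgG2a (left) and anti-PD-1 (right), by role; filled and named points passed an adjusted p of 0.05. Npr3 was at 3.14 and 4.88, and the called genes of the lipase list were all lower in obese mice.

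The 9 genes varied together to unequal degrees. The SD over the 23 libraries of the log2 ratio between 2 genes, which is small when they move in step, was lowest for Lipe and Aqp7 at 0.26, then 0.29 for Lipe with Pde3b and with Abhd5 and 0.33 for Pnpla2 and Abhd5. It was highest for Mgll and Adrb3 at 1.53. By the same measure, over 11881 tested genes with a mean of at least 4 CPM, leaving out predicted genes, the 3 genes closest to Pnpla2 were Pgm1, Vegfb and Pgrmc2 (0.25 to 0.26), and those closest to Lipe were Ankef1, Prkd1 and Ndn (0.20 to 0.25). For Mgll they were Adora1, Thrb and Gpc4 (0.22 to 0.25), and for Abhd5 Pxmp4, Pex19 and Acadsb (0.18 to 0.19). For Pde3b they were Tmem43, Cacna2d1 and Pde1a (0.23 to 0.25), and for Aqp7 Cd300lg, Lipe and C1qtnf9 (0.21 to 0.27). The closest genes were less close for Adrb1 (Cd164, Vill and Ube2q2, 0.33 to 0.35), for G0s2 (Fabp4, Cyb5a and Rras, 0.35 to 0.39) and for Adrb3 (Adig, Gsta4 and Tmem53, 0.45 to 0.49). The median over all compared genes was between 0.84 (Adrb1) and 1.27 (Adrb3). These values describe 23 libraries that share differences in tissue content.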

How the data were processed

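The authors deposited, for each of the 23 libraries, a table of estimated counts and TPM per transcript, with transcript lengths, per the file headers. Per the labels' protocols, RNA with a RIN above 5 was enriched with oligo-dT and made into non-directional libraries. The submitters' processing notes name edgeR, limma and GRCm38. For the program that estimated the counts, a name was not given in the sources used here.

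Transcripts were matched to GENCODE M21 (114200 of 115088) and the deposited estimated counts were summed for 47311 genes and rounded to whole numbers. Genes that passed filterByExpr (minimum count 10; 19882 genes) were fitted with edgeR 4.0.16 (R 4.3.3; TMM scaling, robust quasi-likelihood test, 1 mean for each of the 4 groups) and p-values were adjusted by Benjamini-Hochberg over all tested genes, with calls at 0.05. The biological coefficient of variation was 0.805. Deposited TPM was summed per gene for comparing genes and for ratios. DESeq2 1.42.0, limma 3.58.1 (voom with library quality weights, and log2(TPM + 1) with a trend), other filters, covariates for tissue content, subsets by B cell score and leaving out each library were alternatives. The fit was also run on simulated counts, which held no shared differences in tissue content between libraries, and no result of that run is used here. Of 253 pairs of libraries, 0 held identical values. Nothing says that mice shared a litter or cage, and replicate numbers follow accession order. The 9 genes, the other gene lists and the subsets were chosen with earlier results of these data known. Of each other pathway list the text names every called gene in the diet comparisons, or, where none was called, the gene of smallest p; 1 list is not reported here.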

Additional observations from a re-analysis of the deposited data

Results flagged for a closer look

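In groups of 5 or 8 libraries a single library can lie far from the rest. The rule used marks about 1 in 20 groups by chance where values are independent and normally distributed. The groups here share libraries, and TPM and ratios need not be normal, so that rate may not hold. Of 56 groups examined, 6 had such a library. Lean anti-PD-1 library 2 was high for Pnpla2, at 2437 TPM against 1095 to 1448 TPM in the other libraries of its group, and for G0s2, at 430.7 TPM against 161 to 182 TPM. It was also the lean library with the highest share of Pnpla2-206 (5.78%). Obese anti-PD-1 library 8 had 8.83 TPM of Adrb1, against 1.77 to 4.37 TPM in the others. Obese IgG2a library 4 had 290.8 TPM of Aqp7, against 26.2 to 88.9 TPM. Obese IgG2a library 3 had a Lipe to Pnpla2 ratio of 0.587, against 0.685 to 0.714. Lean IgG2a library 2 had an Mgll to Pnpla2 ratio of 0.122, against 0.153 to 0.165. No cause was tested.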

How the results depend on the processing

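No paired analysis was possible because the labels give no replicate numbers that groups share; the numbers used here follow accession order. The Adrb3 fall kept its direction in every alternative run for both diet comparisons, and its call was lost in those named in the report. Adrb1, the least abundant, had at least 228 estimated counts in every library, and the other 8 at least 2233.

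Genes called differed by method. DESeq2 called 2075 under IgG2a (2 of the 9), 3117 under anti-PD-1, 400 for the antibody in obese mice, 22 in lean mice and 50 for the interaction. The voom fit called 4877 (3 of the 9), 6369 (4 of the 9), 2694 (1 of the 9), 1 and 629 genes in the same order, and turned Mgll under IgG2a to 0.038, Abhd5 under anti-PD-1 to 0.23, Adrb1 in lean mice to -0.35 and the Adrb1 interaction to 0.52. With log2(TPM + 1), 3576 genes were called under anti-PD-1 and 0 for the antibody in obese mice, Abhd5 under anti-PD-1 turned to 0.20, Adrb3 in obese mice to 0.020, Pnpla2 in lean mice to 0.037 and the Adrb1 interaction to 0.072. Without a filter the antibody comparison in obese mice called 70 genes and with the stricter filter 49, and Abhd5 under anti-PD-1 was at 0.039 and 0.025. Fits of only the 2 groups compared called 583 genes under IgG2a, 0 for the antibody in obese mice and 1 in lean mice.

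With the fat-cell score 2431 genes (3 of the 9) were called under IgG2a, 4077 (4 of the 9) under anti-PD-1 and 0 for the antibody in obese mice. Under IgG2a Lipe turned to 0.39, Mgll to 0.84, Aqp7 to 0.59 and Pde3b to 0.18. For the antibody in obese mice Pnpla2 turned to -0.073, Lipe to -0.048, G0s2 to -0.082 and Adrb1 to -0.16, and in lean mice Pnpla2 to 0.17, Lipe to 0.065, Abhd5 to 0.019 and Aqp7 to 0.19. The interaction turned to -0.25 for Pnpla2, -0.11 for Lipe, -0.25 for Mgll and -0.13 for Aqp7. With the B cell score 2966 genes (3 of the 9) were called under IgG2a, 3 of the 9 under anti-PD-1 and 605 genes for the antibody in obese mice. Lipe turned to -0.12 and Mgll to -0.064 under anti-PD-1, Adrb1 to -0.087 in obese mice, and Mgll to -0.0016 and Adrb1 to -0.077 in lean mice. With the muscle score 575, 1108 and 38 genes were called under IgG2a, under anti-PD-1 and for the antibody in obese mice. With the epithelial score, which itself differed with diet, 422 genes (0 of the 9) were called under IgG2a and 818 (0 of the 9) under anti-PD-1. Under IgG2a Lipe turned to 0.066, Mgll to 0.74, Adrb1 to 0.33 and Aqp7 to 0.42, and under anti-PD-1 Pnpla2 to 0.089, Abhd5 to 0.77 and Adrb1 to 0.41. Adrb1 turned to -0.027 in obese mice and -0.11 in lean mice, Mgll to -0.067 in lean mice and the Adrb1 interaction to 0.081.

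Among libraries with a high B cell score 1896 genes (2 of the 9) were called under IgG2a, 574 (2 of the 9) under anti-PD-1 and 0 for the antibody in obese mice. Under anti-PD-1 Lipe turned to -1.03, Mgll to -1.21, G0s2 to -0.13, Aqp7 to -0.84 and Pde3b to -0.61. In obese mice Pnpla2 and Lipe both turned to -0.34, Abhd5 to -0.41, G0s2 to -0.59, Adrb1 to -0.060 and Pde3b to -0.16, and Adrb1 in lean mice to -0.44. The interaction turned to -0.083 for Pnpla2, -0.12 for Lipe, -0.069 for Abhd5, 0.38 for Adrb1 and -0.80 for Adrb3. Among libraries with a low score 255 genes were called under IgG2a, 0 of the 9 under anti-PD-1, 767 for the antibody in obese mice, 2 in lean mice and 2 for the interaction. The low set held 1 lean IgG2a and 2 lean anti-PD-1 libraries, so in the IgG2a, lean and interaction fits a lone lean mouse is assumed to vary like the other groups. G0s2 under anti-PD-1 turned to -0.065 and Adrb3 in obese mice to 0.31. Without obese IgG2a libraries 2 and 5 together 293 genes (0 of the 9) were called under IgG2a and 0 for the antibody in obese mice. The cause of these changes was not tested.

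Leaving out 1 library at a time gave 495 to 1662 genes called under IgG2a (lowest without lean library 1; 716 without obese 2, 549 without obese 5, 545 without lean 2 and 559 without lean 5) and 1108 to 2432 under anti-PD-1 (lowest without lean library 4). It gave 0 to 643 for the antibody in obese mice, highest without IgG2a library 4 and 0 without anti-PD-1 library 1, 2, 5, 6 or 7 or IgG2a library 2 or 5. The lean antibody comparison stayed at 0 and the interaction gave 0 to 1. The 9 genes had 1 to 2 calls under IgG2a, 1 in each anti-PD-1 fit and 0 elsewhere. Adrb3 ran from -2.12 to -1.65 under IgG2a and from -1.61 to -1.25 under anti-PD-1. Signs turned for Mgll under IgG2a (-0.54 to 0.11), Abhd5 under anti-PD-1 (-0.15 to 0.15), Adrb1 in obese mice (-0.16 to 0.37), Adrb1 (-0.046 to 0.44), Aqp7 (-0.22 to 0.094) and Pnpla2 (-0.19 to 0.11) in lean mice, and the Adrb1 interaction (-0.41 to 0.20).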
